A study of Mus musculus with 2 samples.

Results

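The genes described here are the 48 mouse genes that encode Wnt ligands, their Frizzled and Lrp receptors, the R-spondin agonists, the secreted Wnt inhibitors and the feedback regulator Axin2, out of 31053 genes in the deposited tables. They were chosen by symbol: every Wnt, Fzd, Sfrp, Dkk or Rspo gene with a number, plus Frzb, Wif1, Sost, Notum, Axin2, Lrp5 and Lrp6. By role they are 19 ligands, 12 receptors, 4 agonists, 12 secreted inhibitors and 1 feedback gene. The rule itself used symbols only and no measured value, though it was written with earlier results of these data known.

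The data were 2 spatial sections of the mouse calvaria, which forms the roof of the skull, harvested at day 7 after a defect in it was treated. The Col_nHA section came from a defect repaired with a collagen/nHA material, and the Blank section from a defect left without that material. Each group held 1 section, and the labels gave no strain, age, sex, genotype or defect size, nor how many animals a group had. The labels called the libraries fresh-frozen spatial sections, while their extraction text described a droplet single-cell kit. Both tables listed the same 4992 array barcodes, which are array positions and not shared cells, and no image or spot position was used here.

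Wnt proteins are lipid-modified secreted signals. They bind a Frizzled receptor together with the co-receptor Lrp5 or Lrp6, which spares beta-catenin from degradation and lets it switch on target genes such as Axin2; other Wnt ligands, among them Wnt5a, act mostly without beta-catenin. R-spondins keep Frizzled receptors at the cell surface. Secreted Frizzled-related proteins and Wif1 bind the ligands, Dickkopf proteins and sclerostin (the product of Sost) bind Lrp5 or Lrp6, and Notum removes the lipid from Wnt proteins. In bone, activity of the beta-catenin branch favours osteoblasts, and sclerostin from osteocytes restrains it.

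A spot was a barcode with at least 4690 UMIs in Col_nHA or 3667 UMIs in Blank, which gave 2471 Col_nHA spots and 2249 Blank spots. A UMI, or unique molecular identifier, marks 1 captured RNA molecule. The spots held 40202268 UMIs in Col_nHA and 30705849 UMIs in Blank, with a median of 13815 UMIs per Col_nHA spot and 9733 UMIs per Blank spot. Levels are UMIs per 1000000 UMIs of the section's spots (CPM), and because UMIs count molecules they were not divided by gene length. Ratios are Col_nHA over Blank. With 1 section per group no test was possible, and the 95% intervals in parentheses are exact intervals of the counts, which cover counting error only and not the spread between animals. Fewer cells of a type and less RNA per cell cannot be told apart in such sums.

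The sections differed in what tissue they held. The labelled bone was present in both, with every one of 10 osteoblast markers detected, at a summed 21721 CPM in Col_nHA and 32533 CPM in Blank. The 8 fibroblast markers summed to 17180 CPM in Col_nHA and 24054 CPM in Blank, and the 10 skeletal muscle markers to 13462 CPM in Col_nHA and 5715 CPM in Blank. The 12 skin epithelium markers gave 1543 CPM in Col_nHA against 2482 CPM in Blank. Choroid plexus markers, from the brain tissue that makes cerebrospinal fluid, summed to 22.0 CPM in Col_nHA and 12007 CPM in Blank. No marker of these 5 lists was at 0 in either section. The Wnt gene ratios were also taken without the spots rich in skin, muscle or brain genes. These had over 2% of their UMIs in the skin, muscle, fat, nerve, brain and choroid plexus lists together. The part of the osteoblast and fibroblast marker differences in the ratios was not tested.

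Of the 48 genes, 45 had a UMI in Col_nHA spots and 44 in Blank spots. Dkk4, Wnt8a and Wnt8b had none in either section, which allows up to 0.0918 CPM in Col_nHA and 0.120 CPM in Blank. All 48 together made up 0.159% of the UMIs of Col_nHA spots and 0.260% of those of Blank spots. Their summed level was 1594 CPM in Col_nHA against 2602 CPM in Blank, which gave a ratio of 0.613 (0.606 to 0.619).

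One gene carried most of that sum. Sfrp2, a secreted Frizzled-related protein made by connective tissue fibroblasts, was 51.7% (51.3 to 52.1) of all Wnt gene UMIs in Col_nHA and 65.9% (65.6 to 66.3) in Blank. Without Sfrp2 the other 47 genes summed to 769.6 CPM in Col_nHA and 886.5 CPM in Blank, or a ratio of 0.868 (0.854 to 0.882).

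Of the 48 genes, 28 had a mean of at least 3 CPM over both sections, and the 20 others lay at or below 2.66 CPM. None of the 28 was at least 2-fold higher in Col_nHA, against 2.14% of the 12308 genes with that mean. At least 2-fold lower were 3 of the 28, Sfrp2, Wif1 and Wnt16, against 4.41% of those 12308 genes. Of the 28, 4 had a ratio above 1 and 24 a ratio below 1, while 49.8% of all 12308 genes lay above 1. The median log2 ratio of the 28 was −0.37, beside −0.0013 over all 12308 genes. The counting interval lay wholly below 1 for 21 of the 28 genes, wholly above 1 for 4, and held 1 for 3. Over all 12308 genes it lay wholly below 1 for 31.2% and wholly above 1 for 32.1%.

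**Figure D1:**
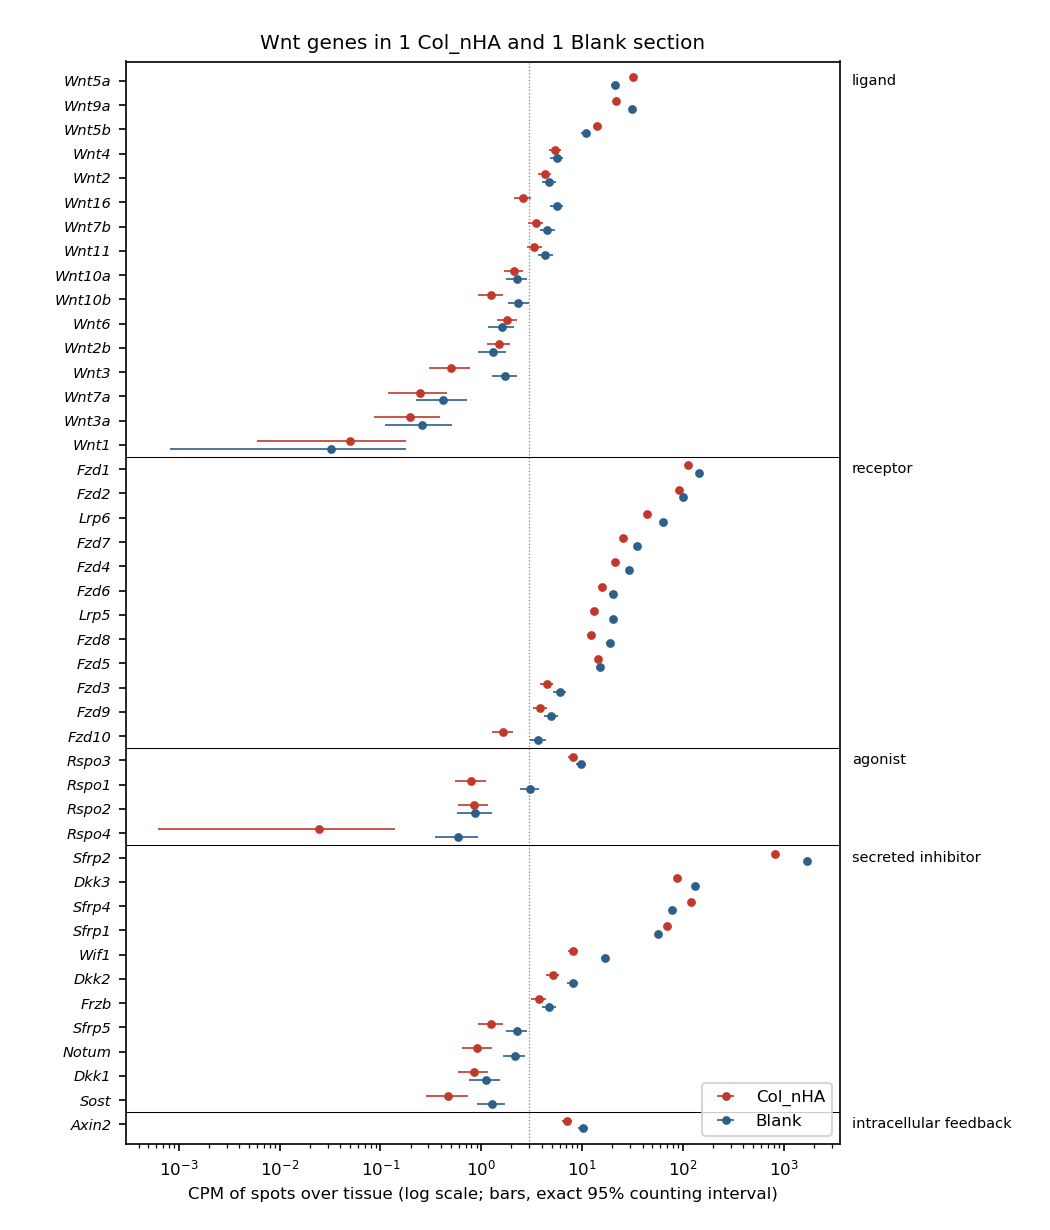
Level of each Wnt gene in spots of the Col_nHA section (red, upper point) and the Blank section (blue, lower point), in CPM on a log scale, with exact 95% counting intervals. The dotted line is the minimum of 3 CPM; the 3 genes with no UMI and Wnt9b, at 0 in Blank, are not drawn, and Sfrp2 lies to the right of every other gene in both sections.

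Among the ligands, Wnt5a and Wnt5b were higher in Col_nHA, and Wnt9a and Wnt16 were lower. Wnt5a, which acts in cell polarity and movement, had 32.3 CPM in Col_nHA compared with 21.1 CPM in Blank, for a ratio of 1.53 (1.39 to 1.68). Wnt5b, its close relative, had 14.1 CPM in Col_nHA against 10.9 CPM in Blank, which gave a ratio of 1.30 (1.13 to 1.49). Both intervals lay above 1, and these were the only ligands of the 8 past the minimum with a ratio above 1.

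Wnt9a, a ligand known from joint formation, had 21.8 CPM in Col_nHA and 31.3 CPM in Blank, or a ratio of 0.697 (0.635 to 0.765). Wnt16, an osteoblast-made ligand known to protect cortical bone in mice, had 2.59 CPM (104 UMIs) in Col_nHA compared with 5.60 CPM (172 UMIs) in Blank, for a ratio of 0.462 (0.358 to 0.593). Wnt4 was close to level, at 5.40 CPM in Col_nHA against 5.63 CPM in Blank with a ratio of 0.958 (0.781 to 1.18). The 19 ligands together summed to 95.1 CPM in Col_nHA against 98.2 CPM in Blank, which gave a ratio of 0.969 (0.923 to 1.02).

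The 3 other ligands past the minimum were lower in Col_nHA by less than 1.5-fold. Wnt2 had 4.25 CPM in Col_nHA and 4.75 CPM in Blank, Wnt7b had 3.48 CPM in Col_nHA and 4.53 CPM in Blank, and Wnt11 had 3.38 CPM in Col_nHA and 4.33 CPM in Blank. The interval of Wnt2, 0.713 to 1.12, held 1, while the upper bounds of Wnt7b and Wnt11 were 0.980 and 0.999. When spots rich in skin, muscle or brain genes were left out, the Wnt7b ratio turned to 1.32 (0.947 to 1.84). The Wnt11 ratio then fell to 0.594 (0.446 to 0.789), and that of Wnt2 was 0.952 (0.749 to 1.21).

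Of the 17 Wnt genes below the minimum that had a UMI, 8 had an interval wholly below 1 and none wholly above, beside 17.6% and 5.41% of the 8261 such genes in all. Wnt3, a beta-catenin ligand, had 20 UMIs in Col_nHA and 53 UMIs in Blank, or a ratio of 0.288 (0.163 to 0.490). Wnt3a had 8 UMIs in each section, Wnt1 had 2 in Col_nHA and 1 in Blank, and Wnt9b had 3 in Col_nHA and 0 in Blank. Wnt10a had 85 UMIs in Col_nHA and 70 in Blank, with an interval of 0.668 to 1.29, and Wnt10b had 50 UMIs in Col_nHA and 72 in Blank, with an interval of 0.362 to 0.771. At these counts no difference in Wnt1, Wnt3a, Wnt9b or Wnt10a was detectable. The annotated spans of Wnt3 and Wnt9b overlap by 1098 bases on chromosome 11, and Wnt5b shares its locus with Fbxl14, so reads there could be split between genes.

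The receptors were lower in Col_nHA as a group. All 11 receptors past the minimum had a ratio below 1, between 0.641 and 0.958, and the upper bound was below 1 for 10 of them, beside 31.2% of all genes. When spots rich in skin, muscle or brain genes were left out, it was below 1 for 8, since the intervals of Fzd3 and Fzd9 then held 1. The 12 receptors summed to 359.7 CPM in Col_nHA compared with 461.2 CPM in Blank, for a ratio of 0.780 (0.762 to 0.798).

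Fzd1, the most abundant Frizzled receptor here, had 112 CPM in Col_nHA against 144 CPM in Blank, which gave a ratio of 0.777 (0.745 to 0.810). Fzd2 had 91.6 CPM in Col_nHA and 100.1 CPM in Blank, or a ratio of 0.915 (0.872 to 0.961). Fzd7 had 25.6 CPM in Col_nHA compared with 35.1 CPM in Blank, for a ratio of 0.728 (0.668 to 0.794). Fzd1, Fzd2 and Fzd7 are close relatives in sequence, and their UMIs together exceeded those of all other Frizzled genes in both sections.

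Fzd4, the receptor for Norrin in blood vessels of the eye, had 21.1 CPM in Col_nHA against 29.3 CPM in Blank, which gave a ratio of 0.719 (0.654 to 0.790). Fzd6, a receptor of the planar polarity branch, had 15.7 CPM in Col_nHA and 20.3 CPM in Blank, or a ratio of 0.774 (0.691 to 0.866). Fzd8 had 12.3 CPM in Col_nHA compared with 18.8 CPM in Blank, for a ratio of 0.653 (0.578 to 0.737). Fzd5 differed least, at 14.5 CPM in Col_nHA against 15.1 CPM in Blank, with an interval from 0.846 to 1.08 that holds 1. Fzd3 and Fzd9, both known from the nervous system, had ratios of 0.743 (0.602 to 0.917) and 0.784 (0.623 to 0.987), and Fzd10, below the minimum, had 66 UMIs in Col_nHA and 113 UMIs in Blank.

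Both beta-catenin co-receptors were lower in Col_nHA. Lrp6 had 44.0 CPM in Col_nHA against 63.3 CPM in Blank, which gave a ratio of 0.695 (0.652 to 0.742). Lrp5, whose loss in people and mice lowers bone mass, had 13.1 CPM in Col_nHA and 20.5 CPM in Blank, or a ratio of 0.641 (0.570 to 0.721). Lrp6 thus had over 3 times the UMIs of Lrp5 in either section.

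Of the R-spondin agonists only Rspo3 passed the minimum, with 8.08 CPM in Col_nHA compared with 9.74 CPM in Blank, for a ratio of 0.830 (0.707 to 0.975). Rspo1 had 32 UMIs in Col_nHA against 93 UMIs in Blank, which gave a ratio of 0.263 (0.170 to 0.397), and Rspo4 had 1 UMI in Col_nHA and 18 UMIs in Blank. Rspo2 had 34 UMIs in Col_nHA and 27 UMIs in Blank, and its interval of 0.563 to 1.66 held 1.

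The secreted inhibitors differed in both directions. Sfrp2 had 824 CPM in Col_nHA and 1716 CPM in Blank, or a ratio of 0.480 (0.474 to 0.487). Sfrp4, which in mice limits Wnt signalling in cortical bone, had 119.7 CPM in Col_nHA compared with 77.9 CPM in Blank, for a ratio of 1.54 (1.46 to 1.61). Sfrp1 had 69.3 CPM in Col_nHA against 57.3 CPM in Blank, which gave a ratio of 1.21 (1.14 to 1.29). Within this gene family the most abundant member was lower in Col_nHA and the next 2 were higher.

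Sfrp2 (ENSMUSG00000027996) lies on chromosome 3 from 83765750 to 83774314 and Sfrp4 (ENSMUSG00000021319) on chromosome 13 from 19623175 to 19632825 (GRCm38.p6). The 2-fold calls of Sfrp2, Wif1 and Wnt16 lie near the threshold: as a mean of per-spot CPM, Sfrp2 had a ratio of 0.510 and Wnt16 of 0.523, and over every barcode Wif1 had a ratio of 0.505. The 7 tendon and fascia markers, whose gene Tnmd led the region with most Blank Sfrp2, summed to 456 CPM in Col_nHA and 824 CPM in Blank, and the 8 meningeal markers summed to 259 CPM in Col_nHA and 219 CPM in Blank, with no marker of either list at 0. The part of those levels in the section-wide Sfrp2 and Sfrp4 ratios was not tested.

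Dkk3, a Dickkopf relative that does not bind Lrp6 as the others do, had 88.4 CPM in Col_nHA and 131 CPM in Blank, or a ratio of 0.676 (0.646 to 0.707). Wif1, which binds Wnt ligands and is made by mature osteoblasts, had 8.16 CPM in Col_nHA compared with 17.0 CPM in Blank, for a ratio of 0.480 (0.417 to 0.552). Dkk2, an antagonist of Lrp6, had 5.12 CPM in Col_nHA against 8.08 CPM in Blank, with a ratio of 0.634 (0.525 to 0.766), and Frzb had 3.73 CPM in Col_nHA against 4.72 CPM in Blank, with an interval that only just left out 1, from 0.625 to 0.9997.

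Sost, the osteocyte inhibitor, was sparse, with 19 UMIs (0.473 CPM) in Col_nHA against 39 UMIs (1.27 CPM) in Blank, which gave a ratio of 0.372 (0.203 to 0.660). Most of these UMIs lay outside the bone matrix region described below. Notum had 37 UMIs (0.920 CPM) in Col_nHA and 66 UMIs (2.15 CPM) in Blank, or a ratio of 0.428 (0.278 to 0.650). Dkk1, another Lrp6 antagonist, had 34 UMIs in each section. Sost and Notum were lower in Col_nHA beyond counting error, while Dkk1 was not, with an interval of 0.461 to 1.27.

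The 12 inhibitors summed to 1122 CPM in Col_nHA compared with 2018 CPM in Blank, for a ratio of 0.556 (0.549 to 0.563). Without Sfrp2 that sum was 298 CPM in Col_nHA against 302.6 CPM in Blank, which gave a ratio of 0.985 (0.958 to 1.01). Inhibitor UMIs outnumbered ligand UMIs 11.8 to 1 in Col_nHA and 20.6 to 1 in Blank. The sum of the 11 inhibitors other than Sfrp2 was level within counting error, although single inhibitors differed both ways, with Sfrp4 and Sfrp1 higher and Dkk3, Wif1 and Dkk2 lower in Col_nHA.

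Axin2, a direct target of beta-catenin and the usual readout of that branch, had 7.11 CPM (286 UMIs) in Col_nHA and 10.3 CPM (316 UMIs) in Blank, or a ratio of 0.691 (0.587 to 0.814). Without spots rich in skin, muscle or brain genes its ratio was 0.789 (0.657 to 0.949). In the 10% of spots richest in skin epithelium, muscle, fat or nerve markers, its interval lay below 1. For osteoblast (0.761, 0.450 to 1.29), fibroblast, tendon and fascia, cartilage, macrophage, endothelium and mural markers the interval held 1. The osteoblast value rests on 33 UMIs in Col_nHA and 30 in Blank, in spots that were not bone alone.

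**Figure D2:**
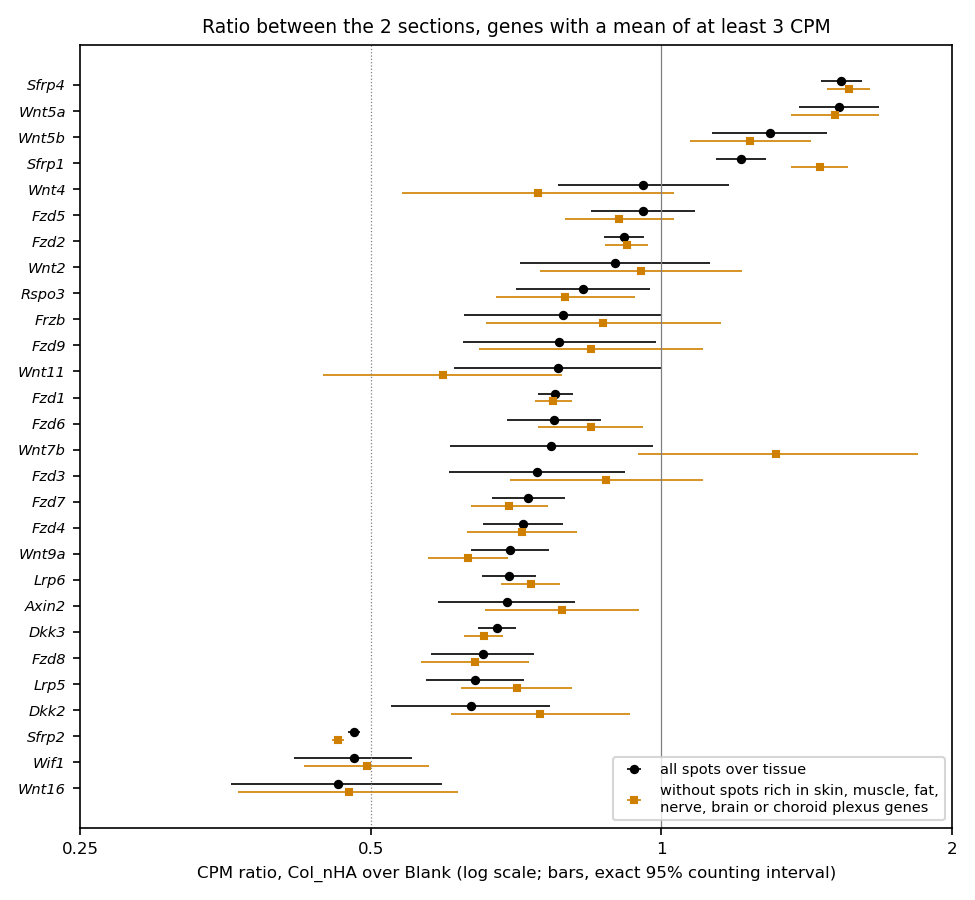
CPM ratio of Col_nHA over Blank for the 28 genes past the minimum, on a log scale with exact 95% counting intervals, over all spots (black) and without spots rich in skin, muscle, fat, nerve, brain or choroid plexus genes (orange). Sfrp4, Wnt5a, Wnt5b and Sfrp1 lie right of 1 in both, and Sfrp2 at 0.480 and 0.462 lies left of the dotted line at 0.5 in both.

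Other genes of the pathway were described from lists of their own. Their ratios were not taken without the spots rich in other tissues. Of the 76 genes past the minimum in 7 lists of other Wnt pathway genes, none was 2-fold higher and 5 were 2-fold lower in Col_nHA, beside 2.14% and 4.41% of all genes. Of the 8 Wnt secretion genes past the minimum, 1 was 2-fold lower and the median log2 ratio was 0.02. Wls, the carrier that brings Wnt proteins to the cell surface, had 204.5 CPM in Col_nHA compared with 203.8 CPM in Blank, for a ratio of 1.0 (0.971 to 1.04). Tmed2, a cargo receptor, had 296 CPM in Col_nHA and 278 CPM in Blank. The gene that was 2-fold lower, the heparan sulfate proteoglycan Gpc3, had 35.1 CPM in Col_nHA against 89.5 CPM in Blank, which gave a ratio of 0.392 (0.367 to 0.418), and its relative Gpc6 had 4.78 CPM in Col_nHA and 7.69 CPM in Blank.

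Among co-receptors and genes of receptor turnover, 1 of 10 was 2-fold lower and the median log2 ratio was −0.29. Lgr6, a receptor for R-spondins, had 1.72 CPM in Col_nHA and 5.28 CPM in Blank, or a ratio of 0.325 (0.242 to 0.434). The Wnt receptor Ryk had 75.2 CPM in Col_nHA and 75.9 CPM in Blank. The Dickkopf receptor Kremen1 had 62.3 CPM in Col_nHA and 69.4 CPM in Blank, and Lrp4, an anchor for sclerostin, had 2.34 CPM in Col_nHA and 4.23 CPM in Blank.

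The 15 cytoplasmic signalling genes held no gene past 2-fold, with a median log2 ratio of −0.06. Ctnnb1, which encodes beta-catenin, had 436.6 CPM in Col_nHA compared with 455.7 CPM in Blank, for a ratio of 0.958 (0.937 to 0.980). The kinase gene Csnk1a1 had 172 CPM in Col_nHA and 173 CPM in Blank. Dvl3 had 36.9 CPM in Col_nHA and 42.3 CPM in Blank, and Amer1 had 7.26 CPM in Col_nHA and 8.47 CPM in Blank. Their median lay closer to 0 than that of the 11 receptors, which was −0.43.

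No nuclear factor of the 12 past the minimum was past 2-fold, with a median log2 ratio of −0.26. Lef1, the listed gene below the minimum, had 42 UMIs in Col_nHA and 122 UMIs in Blank, or a ratio of 0.263 (0.181 to 0.376). Pygo1, a beta-catenin cofactor, had 8.16 CPM in Col_nHA and 12.3 CPM in Blank, and its partner Bcl9 had 10.3 CPM in Col_nHA and 14 CPM in Blank. The co-repressors ran both ways, with Ctbp1 at 141 CPM in Col_nHA against 130.4 CPM in Blank and Tle3 at 36.5 CPM in Col_nHA against 45.4 CPM in Blank.

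Of 11 feedback and target genes none was past 2-fold, and the median log2 ratio was 0.01. Nkd1, a feedback inhibitor of Dishevelled, had 5.20 CPM in Col_nHA and 8.83 CPM in Blank, and its relative Nkd2 had 9.95 CPM in Col_nHA and 16.3 CPM in Blank. Their ratios, 0.589 (0.489 to 0.708) for Nkd1 and 0.609 (0.532 to 0.695) for Nkd2, lay on the same side of 1 as that of Axin2. Of the 11 genes, 5 had a ratio below 1 and 6 above 1. Among the 6 were Myc at 1.40 (1.28 to 1.54) and Ccnd1 at 1.22 (1.16 to 1.28). Cd44, a target that many leukocytes also express, was higher, at 244 CPM in Col_nHA against 151 CPM in Blank, which gave a ratio of 1.62 (1.56 to 1.68). Beside it, the 9 macrophage markers summed to 8568 CPM in Col_nHA and 6420 CPM in Blank, and their part in the Cd44 ratio was not tested. Wisp1 had 121 CPM in Col_nHA and 101 CPM in Blank.

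The planar polarity list had the lowest median log2 ratio of the 7, −0.56, with 2 of 10 genes 2-fold lower. Celsr1, a cadherin of epithelial polarity, had 1.89 CPM in Col_nHA and 4.53 CPM in Blank, or a ratio of 0.418 (0.311 to 0.556). Celsr2 had 3.51 CPM in Col_nHA compared with 9.18 CPM in Blank, for a ratio of 0.382 (0.310 to 0.469). Scrib had 19.9 CPM in Col_nHA and 24.7 CPM in Blank, and Prickle1 had 25.1 CPM in Col_nHA and 26.8 CPM in Blank. The part of the skin and choroid plexus marker differences in the ratios of this list and of Lgr6 was not tested.

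Of 10 other secreted modulators, 1 was 2-fold lower: Sostdc1, a Lrp6 antagonist, had 0.895 CPM in Col_nHA and 31.8 CPM in Blank. Sostdc1 also stands in the choroid plexus marker list, whose level differed between the sections as given above. Igfbp4, a growth factor carrier that also binds Lrp6, had 711 CPM in Col_nHA against 1180.3 CPM in Blank, which gave a ratio of 0.602 (0.593 to 0.612). Cthrc1, a matrix protein of activated fibroblasts, had 595 CPM in Col_nHA and 791 CPM in Blank.

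The spots of both sections were then grouped by the rest of the transcriptome, with the 132 Wnt and pathway genes held out, into 17 regions. These are named by number and leading genes, and a spot can hold several cells. Most regions came almost wholly from 1 section, so that 1 section and 1 tissue cannot be told apart there. Only regions 1 and 4 had at least 50 spots of each section. Region 1 was led by Shisa3, Cldn11, Penk, Foxd1 and Foxc2 and held 307 Col_nHA spots and 248 Blank spots. Region 4 was led by Bglap, Bglap2 and Ibsp, genes of bone matrix, and held 90 Col_nHA spots and 71 Blank spots.

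**Figure D3:**
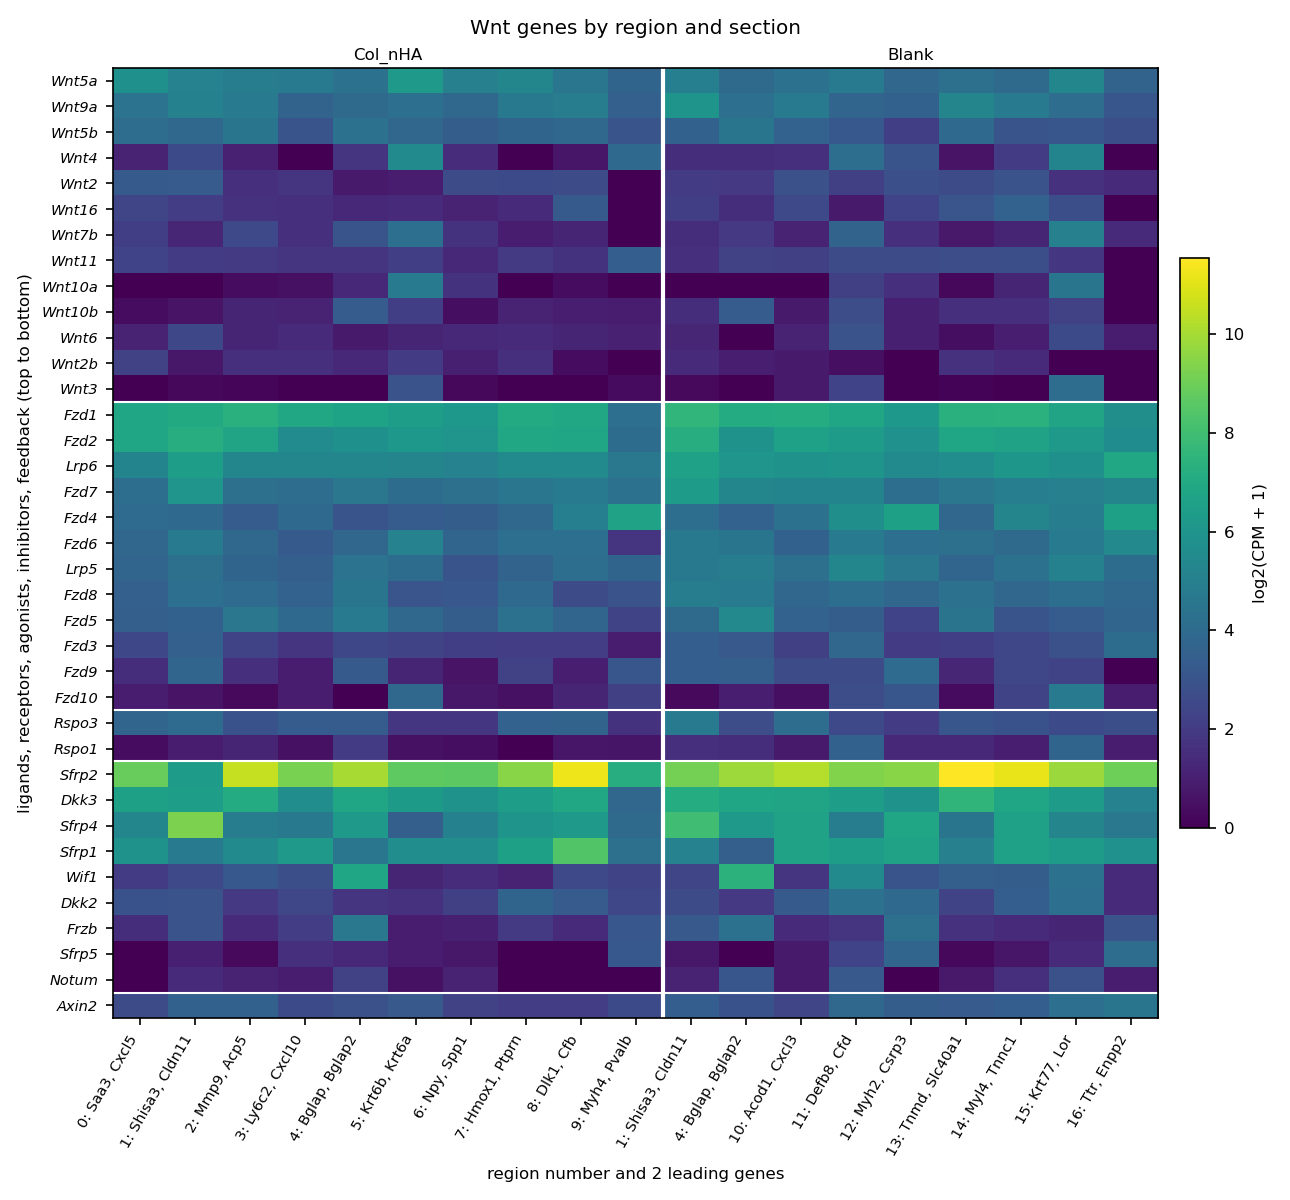
Level of the Wnt genes, as log2(CPM + 1), in each region with at least 50 spots of a section, with the 10 Col_nHA regions left of the 9 Blank regions and genes in rows by role. Sfrp2 forms the brightest row, with its darkest cell in region 1 of Col_nHA, where Sfrp4 is brightest.

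In region 1 the balance of the secreted Frizzled-related proteins differed between the sections. Sfrp2 had 81.7 CPM in Col_nHA and 567 CPM in Blank, or a ratio of 0.144 (0.130 to 0.159). Sfrp4 had 609 CPM in Col_nHA compared with 253 CPM in Blank, for a ratio of 2.41 (2.25 to 2.58). Sfrp4 UMIs outnumbered Sfrp2 UMIs 7.46 to 1 in Col_nHA, whereas Sfrp2 UMIs outnumbered Sfrp4 UMIs 2.24 to 1 in Blank.

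Sfrp2 was 9.87% of the inhibitor UMIs of region 1 in Col_nHA and 55.8% in Blank. Region 1 held 74.2% of all Sfrp4 UMIs of the Col_nHA section and 46.3% of those of the Blank section. The size of the Sfrp2 difference depended on where the region was drawn: with coarser and finer grouping of the spots, chosen after seeing the data, the Sfrp2 ratio was 0.439 and 0.488 and the Sfrp4 ratio 2.74 and 1.43. Which gene led in Blank also depended on it. With finer grouping Sfrp4 exceeded Sfrp2 in both sections, at 979.5 against 106 CPM in Col_nHA and 684 against 216 CPM in Blank. With coarser grouping Sfrp4 and Sfrp2 had 624.8 and 393 CPM in Col_nHA and 228 and 896 CPM in Blank. Over the 10% of spots richest in a list of meningeal markers, a choice made without the regions, Sfrp2 had 191 CPM in Col_nHA against 517 CPM in Blank, which gave a ratio of 0.369 (0.338 to 0.403), and Sfrp4 had 704 CPM in Col_nHA and 253 CPM in Blank, or a ratio of 2.79 (2.57 to 3.02).

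Other Wnt genes of region 1 also differed. Wnt9a had 32.4 CPM in Col_nHA compared with 62.7 CPM in Blank, for a ratio of 0.517 (0.427 to 0.624), and Rspo3 had 15.5 CPM in Col_nHA against 25.3 CPM in Blank, which gave a ratio of 0.613 (0.459 to 0.816). Dkk3 had 88.5 CPM in Col_nHA and 141 CPM in Blank, and Fzd1 had 127 CPM in Col_nHA and 192 CPM in Blank. Wnt2 was higher, with 53 UMIs in Col_nHA and 14 UMIs in Blank, or a ratio of 2.83 (1.55 to 5.53). Wnt4 and Wnt6 were higher too, on few UMIs. Wnt4 had 30 UMIs in Col_nHA and 8 in Blank, a ratio of 2.80 (1.26 to 7.08). Wnt6 had 27 UMIs in Col_nHA and 6 in Blank, a ratio of 3.37 (1.36 to 9.97). Wnt5a (1.09, 0.871 to 1.36), Fzd2 (1.0, 0.903 to 1.11) and Axin2 (1.11, 0.745 to 1.68) had ratios whose intervals held 1. The Wnt5a and Axin2 intervals in region 1 also left out their section-wide ratios of 1.53 and 0.691. With coarser grouping, however, Wnt5a stood at 1.32 (1.06 to 1.65) in region 1, and with finer grouping at 1.21 (0.825 to 1.82). Both of these intervals held 1.53. The Axin2 interval in region 1 held 0.789, its section-wide ratio without spots rich in other tissues. Region 1 was also where Fzd7 was highest among regions in both sections, at 64.6 CPM in Col_nHA against 80.7 CPM in Blank.

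In region 4, the bone matrix region, Sfrp2 was close to level between the sections, at 1032 CPM in Col_nHA compared with 925 CPM in Blank, for a ratio of 1.12 (1.03 to 1.21). Finer and coarser grouping put that ratio at 0.959 and 0.712. Sfrp4 had 71.7 CPM in Col_nHA against 74.6 CPM in Blank, which gave a ratio of 0.962 (0.706 to 1.31) that coarser grouping moved to 0.395.

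Region 4 was the place of the highest Wif1 level in both sections, with 112.6 CPM in Col_nHA and 170 CPM in Blank. It held 44.5% of all Wif1 UMIs in Col_nHA and 34.9% in Blank. Within it the ratio was 0.664 (0.530 to 0.830). Coarser grouping, which widened the region to 566 Col_nHA spots and 169 Blank spots, moved that ratio to 0.169, and finer grouping to 0.686. Dkk1 was the gene most gathered there: 18 of its UMIs (52.9%) in Col_nHA and 20 (58.8%) in Blank came from region 4.

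Frzb (23.9 CPM in Col_nHA, 18.6 CPM in Blank), Fzd5 (26.2 CPM in Col_nHA, 41.9 CPM in Blank) and Wnt10b (9.25 CPM in Col_nHA, 9.32 CPM in Blank) also had their highest regional level in region 4 of both sections. The next region was within counting error for Frzb in Blank, Fzd5 in Col_nHA and Wnt10b in both sections. Sost had 0 UMIs in region 4 of Col_nHA, where 3 counts would be 2.31 CPM. It had 9 UMIs (8.39 CPM, 3.84 to 15.9) in region 4 of Blank, or 23.1% of its Blank UMIs. In Col_nHA, 8 of its 19 UMIs (42.1%) came from region 9, led by the muscle genes Myh4 and Pvalb. Both co-receptors had ratios below 1 in region 4, 0.588 (0.399 to 0.860) for Lrp6 and 0.717 (0.407 to 1.25) for Lrp5, the second within counting error.

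**Figure D4:**
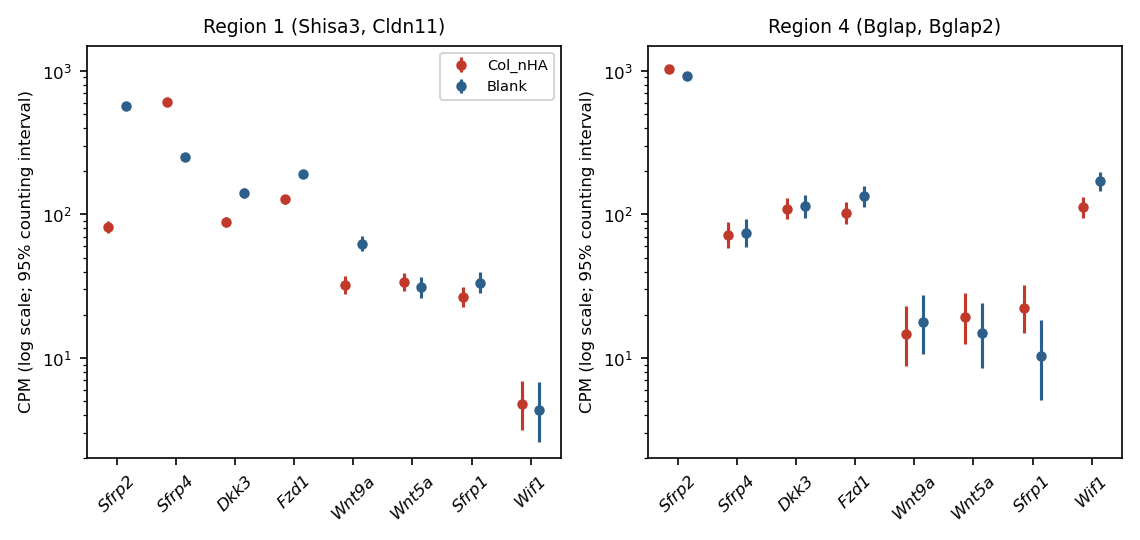
Levels of 8 Wnt genes within region 1 (left) and region 4 (right), in CPM on a log scale with exact 95% counting intervals, Col_nHA in red and Blank in blue. In region 1 Sfrp2 stands at 81.7 CPM in Col_nHA against 567 CPM in Blank with Sfrp4 in the other order, while in region 4 Sfrp2 and Sfrp4 are close to level.

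Outside those regions, the highest levels lay in regions that only 1 section held in number. Sfrp2 peaked at 2427 CPM in region 8 of Col_nHA, led by Dlk1, Cfb and C3, and at 2971 CPM in region 13 of Blank, led by Tnmd and Slc40a1. Region 13 alone held 62.3% of all Blank Sfrp2 UMIs and 692 Blank spots against 6 Col_nHA spots. Sfrp1 peaked in the same region 8 at 336 CPM, against at most 100.4 CPM in any Blank region. Region 8 thus held the top level of both Sfrp1 and Sfrp2 in Col_nHA.

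Ligands known from skin epithelium followed the keratin-led regions, region 5 of Col_nHA (Krt6b, Krt6a) and region 15 of Blank (Krt77, Lor, Krt10). Wnt4 had 44.9 CPM in region 5 of Col_nHA and 35.8 CPM in region 15 of Blank. Wnt10a, a ligand of skin appendages and teeth, had 75.3% of its Col_nHA UMIs in region 5 and 72.9% of its Blank UMIs in region 15. Wnt7b and Fzd10 peaked in the same regions, Wnt7b at 17.8 CPM in Col_nHA against 31.2 CPM in Blank and Fzd10 at 13.6 CPM in Col_nHA against 26.6 CPM in Blank. The Wnt7b peak in Col_nHA was within counting error of the next region. Wnt3 also peaked there, with 16 of its 20 Col_nHA UMIs in region 5 and 39 of its 53 Blank UMIs in region 15.

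Wnt5a also peaked there, at 75.4 CPM (64.7 to 87.3) in region 5 of Col_nHA and 37.9 CPM (30.5 to 46.6) in region 15 of Blank. In Blank the next level, 31.0 CPM in region 1, was within counting error. Unlike the epithelial ligands, however, Wnt5a was spread over the section, and region 5 held 13.7% and region 15 held 13.9% of its UMIs. Its next highest level in Col_nHA was 53.9 CPM in region 0, led by the acute-phase and neutrophil-attracting genes Saa3 and Cxcl5.

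Fzd4 was highest in a region led by muscle genes in Col_nHA, region 9 (Myh4, Pvalb), at 98.4 CPM. Region 9 held 42.0% of all Fzd4 UMIs in Col_nHA. In Blank it was highest in region 16, led by Enpp2 and the choroid plexus markers Ttr and Kl, at 93.4 CPM, with the muscle-led region 12 (Myh2, Csrp3) next at 92.3 CPM, a difference within counting error. Region 16 also had the highest Blank level of Lrp6 at 118 CPM and of Axin2 at 21.7 CPM, each within counting error of the next region. The Fzd4 gene overlaps Tmem135 in the annotation, and whether counting used strand was not stated in the sources.

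Axin2 had no marked peak in Col_nHA, where it was highest at 11.05 CPM in region 2 (Mmp9, Acp5) and 10.9 CPM in region 1. In Blank its highest levels were those of region 16 and of the keratin-led region 15, at 17.7 CPM. Wnt16 was highest in region 8 of Col_nHA at 8.73 CPM and in region 14 of Blank (Myl4, Tnnc1, Myh8) at 11.5 CPM, each within counting error of the next region.

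A second look used marker lists in place of regions, taking in each section the 10% of spots with the largest share of UMIs in a list (247 Col_nHA spots, 225 Blank spots). Wif1 was 15.8-fold higher in the osteoblast-rich 10% than in the other spots of Col_nHA and 10.3-fold higher in Blank. Sfrp4 was 12.2-fold higher in the 10% rich in meningeal markers in Col_nHA and 4.27-fold higher in Blank. Fzd4 was 7.28-fold higher in the muscle-rich 10% in Col_nHA and 4.09-fold higher in Blank. These gene and tissue pairs therefore ran the same way in both sections.

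In the osteoblast-rich 10%, Sfrp2 was close to level, at 2576 CPM in Col_nHA against 2699 CPM in Blank, or a ratio of 0.954 (0.926 to 0.984). In the fibroblast-rich 10% it had 2705 CPM in Col_nHA compared with 2967 CPM in Blank, for a ratio of 0.912. Sfrp1 in the osteoblast-rich 10% was higher in Col_nHA, at 138 CPM against 37.8 CPM in Blank, a ratio of 3.64 (2.94 to 4.53), and Wif1 lower, at 52.6 CPM in Col_nHA against 95.9 CPM in Blank, which gave a ratio of 0.549 (0.455 to 0.661). Over 15 marker lists taken in this way the Sfrp2 ratio lay below 1 for 13 and above 1 for 2, though not all lists marked like tissue in both sections. It was lowest in the muscle-rich 10%, at 0.155 (0.139 to 0.173), and in the macrophage-rich 10%, at 0.177 (0.169 to 0.185). The mural-rich 10% followed at 0.280, and the Sfrp2 ratio was highest in the fat-rich 10%, at 1.31 (1.24 to 1.38). The spots compared were not alike. Muscle markers were 14.3% of UMIs in the muscle-rich 10% of Col_nHA and 4.64% in that of Blank. Macrophage markers were 2.35% of UMIs in the macrophage-rich 10% of Col_nHA and 1.32% in that of Blank. Fat markers were 0.108% of UMIs in the fat-rich 10% of Col_nHA and 0.519% in that of Blank. Choroid plexus markers were 0.0138% of UMIs in their richest 10% of Col_nHA and 13.7% in that of Blank. Brain markers were 0.0154% in Col_nHA and 0.0251% in Blank. The count over 15 lists is thus not one over matched tissues. In the muscle-rich 10%, Sfrp4 (0.121) and Fzd1 (0.182) also had low ratios, while Fzd4 (1.06) and Wnt4 (2.24) did not. The part of these tissue shares in the Sfrp2 ratios was not tested.

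**Figure D5:**
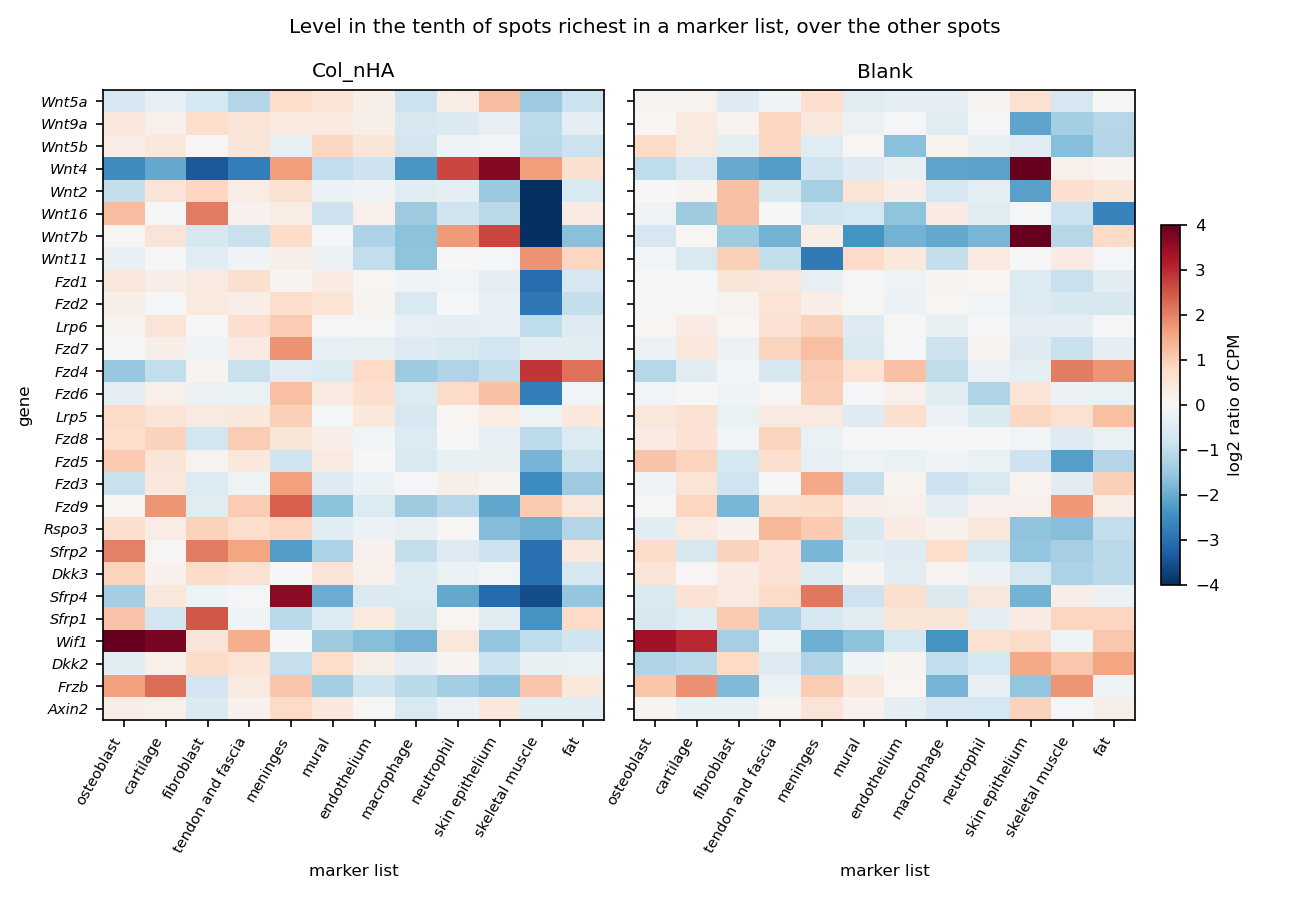
For each gene (rows) and marker list (columns), the log2 ratio of CPM in the 10% of spots richest in that list over the other spots, in Col_nHA (left) and Blank (right), with the colour scale ending at 4 either way. Wif1 is dark red under osteoblast and cartilage in both sections, Sfrp4 red under meninges, Fzd4 red under skeletal muscle, and Wnt4 dark red under skin epithelium.

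Because the sections differed in skin, muscle, fat, nerve, brain and choroid plexus, the ratios were also taken without some spots. Those left out had over 2% of their UMIs in these lists together, 340 Col_nHA spots (13.8%) and 627 Blank spots (27.9%). The cut did not clear all such tissue. The brain list reached at most 0.230% of a spot's UMIs, and the skin-richest 10% of Col_nHA spots began at 0.143%. Of the Wnt4 UMIs, 83 of 217 in Col_nHA and 76 of 173 in Blank remained. Without the spots left out, Sfrp2 had a ratio of 0.462, Wnt9a of 0.631 and Sfrp1 of 1.46. Of the 28 genes past the minimum, Wnt7b shifted most, from below 1 to the 1.32 given above. Wnt4 moved to 0.744 and Wnt11 to 0.594. Sost, with few UMIs, moved to 0.203.

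Depth in a single spot was too low to say which spots expressed a gene. With each spot thinned to 2000 UMIs, at least 1 Sfrp2 UMI was found in 51.4% of Col_nHA spots and 79.0% of Blank spots. Thinned to 500 UMIs, Sfrp2 was found in 25.4% of Col_nHA spots and 44.5% of Blank spots, but also in 29.8% of Col_nHA barcodes and 49.4% of Blank barcodes below the spot minimum. A Sfrp2 UMI in a spot is thus not read as expression in that spot.

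For each of the 6 most abundant Wnt genes, the genes with the most similar levels over the 19 pools of region and section were found among 9493 genes, by Pearson r of log2(CPM + 1). These pools share 2 libraries, so the values are descriptive. Sfrp2 was most like Aspn (r = 0.897), C1qtnf3 (0.863) and En1 (0.861). Sfrp4 was most like Col6a5 (0.897), Col26a1 (0.893) and Uaca (0.863), and Sfrp1 most like Ms4a4d (0.830), Vegfd (0.830) and Il15ra (0.818). The 3 Sfrp genes thus had different nearest genes, and over the pools the r of Sfrp2 with Sfrp4 was −0.13.

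Fzd1 was most like Bgn (0.95), Cdk14 (0.946) and Atf2 (0.939), Fzd2 most like Fbxo18 (0.953), Adgra2 (0.942) and Plekhg2 (0.938), and Dkk3 most like Tbc1d2b (0.957), Ephb2 (0.952) and Mmp23 (0.95). Fzd1 and Dkk3 also ran together, with an r of 0.93.

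Beta-catenin acts through Tcf and Lef factors, which bind a core written CTTTGAT on one strand and ATCAAAG on the other, so the promoters of the Wnt genes were searched for those letters. RefSeq (GRCm38.p6) promoter windows were at hand for 31 of the 48 genes, in 34 windows, and each window of 300 bases, 250 before the annotated start and 50 after it, was searched on both strands. The letters were in 2 of the 34 windows (5.88%) and in 1225 of all 32851 windows (3.73%), a like share. The Axin2 window did not hold them. Both stretches are shown 5′ to 3′ on the gene's strand, with the matching letters in capitals, because no other Wnt gene window held the core.
Wnt5b (chr6:119449440-119449468, minus strand): agtaagtctctCTTTGATctgctccctgt
Wnt11 (chr7:98835050-98835078, plus strand): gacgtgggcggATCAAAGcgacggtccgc
The Wnt5b match lay 64 bases before a transcript start inside the annotated gene, and the Wnt11 match 44 bases before a start at the gene's edge. Wnt5b was among the higher genes in Col_nHA, at 14.1 CPM against 10.9 CPM in Blank, while Wnt11 had 3.38 CPM in Col_nHA and 4.33 CPM in Blank, or a ratio of 0.781 (0.610 to 0.999). A match of letters is no evidence that a factor bound there.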

How the data were processed

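Per the labels, 2 fresh-frozen spatial libraries of mouse calvarial bone were sequenced, 1 per group. The authors' deposited tables give, for each gene and barcode, a raw UMI count, a whole number with no normalization and no tissue filter. The submitters' processing notes name Space Ranger and build mm10, with a version not given in the sources used here, and the matrix headers name Cell Ranger 4.

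Total UMI counts were 45137685 in Col_nHA and 34868368 in Blank, of which spots above the stated minima held 89.1% and 88.1%. Of all barcodes, 215 in Col_nHA and 265 in Blank lay within 10% of the minimum. UMIs were summed over spots and scaled to CPM. Exact intervals were Clopper-Pearson for shares, Poisson for levels and, for ratios, binomial given the summed count, and they cover counting error only; a count of 0 was given a floor of 3 counts. No p-value was computed. Genes were counted at 2-fold among those with a mean of at least 3 CPM.

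The gene set, the pathway and marker lists and the comparisons were chosen with earlier results of these data known. The genes given full values by rule were the 14 with the highest mean CPM, those past 2-fold, and Axin2, Notum, Lrp5, Lrp6 and Sost, with the 2 most abundant and the 2 most changed genes of each pathway list; other genes were named after their values were seen. Of the IDs, 30934 of 31053 matched the gene name table, with all 48 Wnt genes among them, and positions and promoters are those of RefSeq on GRCm38.p6. Dkkl1, Sostdc1 and 2 antisense genes were not part of the set.

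For regions, each spot was scaled to 10000 counts, 30 principal components were taken from the log values of 2000 variable genes, without batch integration, and spots were grouped by Leiden clustering with 15 neighbours at resolution 0.6 (scanpy 1.11.5, igraph 0.11.9, Python 3.11.15). Alternatives were edgeR 4.0.16 TMM factors (for scaling only), median-of-ratios factors, totals without mitochondrial, ribosomal and haemoglobin genes, other CPM minima and folds, every barcode, a minimum of 2000 or a higher number of UMIs in both sections, no spots rich in other tissues, mean CPM per spot and other resolutions. The scripts were tested on simulated data.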

Additional observations from a re-analysis of the deposited data

Results flagged for a closer look

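The Sfrp2 ratio differed between the regions that both sections held. It was 0.144 (0.130 to 0.159) in region 1, led by Shisa3 and Cldn11, and 1.12 (1.03 to 1.21) in region 4, led by Bglap and Bglap2, so that Sfrp2 was lower in Col_nHA in the first and higher in the second. With 1 section per group the difference between the regions was not tested. With coarser grouping the ratio was 0.439 in region 1 and 0.712 in region 4, and with finer grouping 0.488 in region 1 and 0.959 in region 4, so that both lay below 1 and closer together.

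Barcodes below the spot minimum, which entered the comparison of levels only where every barcode was used, also held Wnt gene UMIs, 7931 in Col_nHA and 10236 in Blank. That was 0.161% of the UMIs of these barcodes in Col_nHA and 0.246% in Blank, close to the 0.159% in Col_nHA and 0.260% in Blank of the spots.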

How the results depend on the processing

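The count of genes at least 2-fold lower in Col_nHA was 7 of 37 with a minimum mean of 1 CPM, which lets in Fzd10, Notum, Rspo1 and Wnt3, beside 6.69% of all genes. At 1.5-fold, 2 genes were higher (Sfrp4 and Wnt5a; 5.88% of all genes) and 6 lower (9.34% of all genes). The other settings kept the count of higher genes at 0 and the count of lower genes within 1.5 times 3. The median log2 ratio of the Wnt genes stayed below 0 in each of them, from −0.52 to −0.33, and no ratio of the 19 genes named by rule crossed 1 in the 8 alternatives run on them. As mean CPM per spot, Sfrp2 stood at 0.510, Wnt16 at 0.523 and Sfrp4 at 1.24. Wnt16 stood at 0.509 with a minimum of 2000 UMIs, Wif1 at 0.505 with every barcode, and Notum at 0.545 and Sost at 0.203 without spots rich in other tissues. The cause of these shifts was not tested. No paired analysis was possible because each group held 1 section, and for the same reason no section could be left out. Depth limits the Wnt genes under 3 CPM, whose ratios rest on at most 113 UMIs per section.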
